A study of Mus musculus with 10 samples.

Results

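The data compare isolated ventricular cardiomyocytes with whole hearts of mice, over all 10 arrays of the series. The members are the 6 arrays titled cardiomyocytes and the 4 titled heart, and 19190 genes are compared between them. All mice were male C57BL/6 animals of 3 months, none was treated, and each array took RNA pooled from 2 samples. The cardiomyocyte arrays comprised 3 of wild-type (WT) and 3 of VAChT KD mice, and the heart arrays comprised 2 of each genotype. VAChT KD mice carry a knockdown of the vesicular acetylcholine transporter, the protein that loads acetylcholine into synaptic vesicles, so both genotypes occur on each side of the comparison. The heart arrays hold whatever was excised with the organ, whereas the other arrays hold cells taken from the ventricles. How the cells were freed from the tissue is not given in the labels, and nothing states that the pools came from separate sets of animals, so p-values measure only the spread between these arrays.

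Cardiomyocytes fill most of the volume of the heart, but most of its cells are of other kinds. Capillary endothelium lies beside every muscle cell, fibroblasts hold the matrix, macrophages live between them, and a mesothelial layer, the epicardium, covers the surface. Atria and ventricles also differ in their muscle genes, and a beating muscle cell devotes much of its RNA to the sarcomere and to mitochondria. Immediate early genes such as Fos are switched on within minutes of a stimulus, from promoters that already carry their activators.

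Each gene was described by its percentile within its array, where 0 is the dimmest and 100 the brightest of the 19190 genes. The authors' log2 values could not be set side by side directly, because the array medians lay between 6.22 and 6.30 in the cardiomyocytes and between 7.56 and 7.61 in the hearts. Differences below are cardiomyocytes minus hearts in percentile points, given as the fitted value ± SE over 6 and 4 arrays, with Benjamini-Hochberg adjusted p-values from limma over all genes. A gene was called when its adjusted p was under 0.05 and its difference was at least 10 points. Values of single arrays are given as the lowest, median and highest of the 6 cardiomyocyte arrays, and as WT 1, WT 2, KD 1 and KD 2 for the hearts. A gene near 100 has little room to move in percentile, so for bright genes the difference of quantile-normalized log2 values is given too, and for lists of bright genes the counts by both log2 scalings (quantile-normalized, and with each array's median subtracted), called at an adjusted p under 0.05 and at least 0.5 log2. The log2 values also spread more widely in the cardiomyocytes, with standard deviations of 1.91 to 1.98 per array against 1.59 to 1.66 in the hearts. Subtracting array medians leaves that spread unequal, which by itself lifts genes at the top of both sets in the cardiomyocytes. Upward counts of bright genes by that scaling therefore cannot be told apart from the unequal spread. In RNA from whole tissue, fewer cells of a type and less RNA per cell cannot be told apart.

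Arrays of the same preparation resembled each other closely. Spearman correlations were 0.992 to 0.995 between cardiomyocyte arrays and 0.975 to 0.992 between heart arrays, against 0.896 to 0.922 across the preparations. The labels name the Ambion and Affymetrix labelling manuals for the cardiomyocytes and the Affymetrix manual alone for the hearts, so preparation, labelling and scaling set cannot be told apart in any difference below. The knockdown's own target, Slc18a3, lay between 45.9 and 54.4 in the cardiomyocytes and between 43.1 and 56.8 in the hearts, with no separation of the genotypes. KD heart 1 stood apart in its thymocyte genes, whose median percentile was 89.4 there and 33.6 to 41.2 on the other heart arrays, and the counts printed below are also given without that array where it moves them by over 1.5 times. KD heart 2 was the lowest heart array for several atrial genes, and WT cardiomyocytes 3 was the highest cardiomyocyte array for several macrophage genes.

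Of the 19190 genes, 2930 were called higher in the cardiomyocytes (15.3%) and 2720 lower (14.2%), together 29.4%. With an adjusted p under 0.05 alone the shares were 36.2% higher and 33.9% lower (70.1% in all), and with a minimum of 20 points 3.76% and 4.43% (8.19%). The arrays did not overlap, all 6 on one side of all 4, for 58.7% of genes (30.6% with the cardiomyocytes higher and 28.2% lower), and this held for 5488 of the 5650 called. Leaving out KD heart 1, 29.9% were called (15.4% higher and 14.5% lower), and 5291 of the 5650 were called in the same direction. Calls were fewest at the ends of the intensity range: with genes divided by mean percentile into 4 equal bins, the shares were 14.9% in the lowest bin, 38.7% and 43.5% in the middle ones and 20.7% in the highest. The 1205 olfactory, vomeronasal and taste receptor genes, which heart tissue is not known for, had medians of 7.59 to 7.91 on the cardiomyocyte arrays and 7.17 to 7.36 on the hearts, with 75 called higher and 64 lower. The even split of directions depended on the scale. Percentiles and quantile normalization give every array the same distribution, so upward and downward differences balance in sum. A near-even split on those scales is therefore largely built in. Of the called genes, 51.9% were higher by percentile and 51.9% with quantile-normalized log2 values, but 63.8% were higher when each array's median was subtracted from its log2 values, a scaling that moved the median of all genes by 0.12. At a minimum log2 difference of 0.5, the quantile-normalized fit called 21.0% of genes higher and 19.5% lower, and the fit with array medians subtracted 30.7% and 17.4%.

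**Figure D1:**
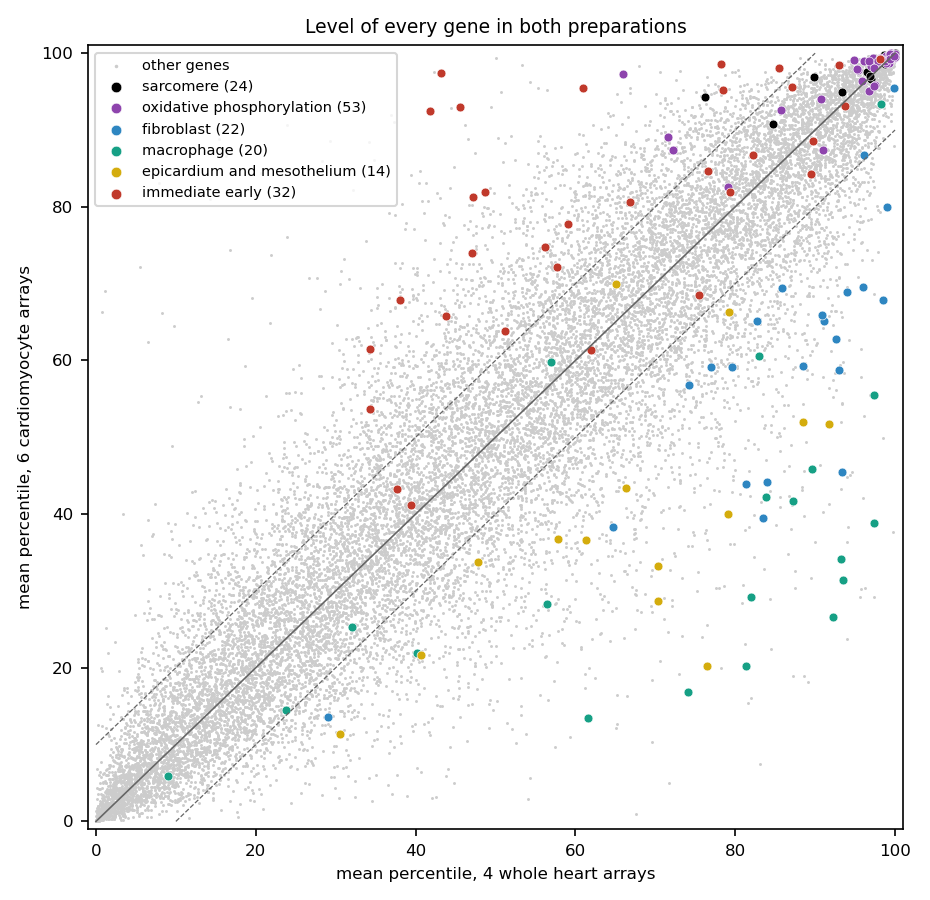
Mean percentile of each of the 19190 genes over the 4 whole heart arrays (horizontal) against its mean over the 6 cardiomyocyte arrays (vertical). The solid line marks equal levels and the dashed lines a difference of 10 points; sarcomere and oxidative phosphorylation genes sit in the upper right corner, fibroblast, macrophage and epicardial genes mostly below the lines, and most immediate early genes above them.

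Ventricular muscle genes were at the top of both preparations, so the defining markers of the labelled cell type were present on all arrays. The median of the 20 ventricular markers was 99.8 on each cardiomyocyte array and 99.5 to 99.6 on the hearts, a level that leaves no room for a call upward, and none was called in either direction by percentile. By quantile-normalized log2 6 were called higher and none lower, and with array medians subtracted all 20 were called higher. Myh6, the main myosin heavy chain of the adult mouse heart, lay at 99.9 on every cardiomyocyte array and 99.8 to 99.9 in the hearts. Myl2, the ventricular regulatory light chain, was at 99.9 in both. On the quantile-normalized log2 scale, Myh6 differed by 0.31 ± 0.06 (adjusted p = 0.00049) and Myl2 by -0.05 ± 0.05 (adjusted p = 0.37). Ttn, the giant spring of the sarcomere, was higher on that scale by 1.48 ± 0.07 (adjusted p = 2e-08), and Tnni3, the inhibitory troponin subunit, by 1.48 ± 0.05 (adjusted p = 1.5e-09). Of 24 sarcomere genes, 1 was called by percentile and 9 were called higher and none lower by quantile-normalized log2, where the median of the list was 0.30 and that of all genes 0.01. With array medians subtracted all 24 were called higher. The called one was Mypn, a Z-disc protein that binds titin and nebulin family members. It lay at 93.6, 94.5 and 94.7 in the cardiomyocytes and at 78.6, 75.4, 72.4 and 78.6 in the hearts, a difference of 18.1 ± 1.1 points (adjusted p = 8.8e-07), with no overlap between the sets.

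Genes of connective tissue were lower in the cardiomyocytes as a block. All 22 fibroblast markers had non-overlapping arrays in that direction and 20 were called, with a median difference of -25.5 points against 0.17 over all genes. The median level of the list was 58.8 to 64.4 on the cardiomyocyte arrays and 88.3 to 90 on the hearts. Pdgfra, the receptor that marks resident fibroblasts, lay at 36.2, 44.0 and 51.2 in the cardiomyocytes and at 85.7, 84.2, 81.1 and 84.7 in the hearts, so every cardiomyocyte array was in the middle of its range and every heart array near the top. Its difference was -39.7 ± 2.8 points (adjusted p = 1.8e-06). Lum, encoding the collagen-binding proteoglycan lumican, was at 31.0, 46.1 and 57.5 against 94.6, 93.9, 93.0 and 91.9 and differed by -47.9 ± 4.2 points (adjusted p = 6.7e-06). Col1a1, a chain of collagen I, was at 66.0, 69.0 and 72.2 against 94.7, 94.7, 93.1 and 93.4 (-25.1 ± 1.2; adjusted p = 2.5e-07). Dcn shows the ceiling of the scale. This small proteoglycan of collagen fibrils was at 92.1, 95.7 and 97.6 in the cardiomyocytes and at 99.9 on every heart array, a difference of only -4.48 ± 0.97 points, yet -3.16 ± 0.21 in quantile-normalized log2 (adjusted p = 1.5e-07). The list's median stayed above the middle of all genes on each cardiomyocyte array.

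The matrix genes themselves gave 18 of 27 called lower and none higher, with a median difference of -15.4 points. Tnxb, the tenascin of loose connective tissue, was at 47.9, 48.8 and 50.3 against 87.8, 85.5, 85.9 and 88.8, a difference of -38.0 ± 1.3 points (adjusted p = 3.4e-08). Fn1, the adhesive glycoprotein fibronectin, was at 73.6, 77.3 and 79.1 against 94.2, 92.6, 92.1 and 91.8 (-15.9 ± 1.3; adjusted p = 4.1e-06). Basement membrane collagen differed less: Col4a1 was at 73.6, 76.0 and 77.0 against 82.5, 82.1, 80.7 and 82.0, -6.15 ± 0.91 points, under the minimum for a call (adjusted p = 0.00023).

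**Figure D2:**
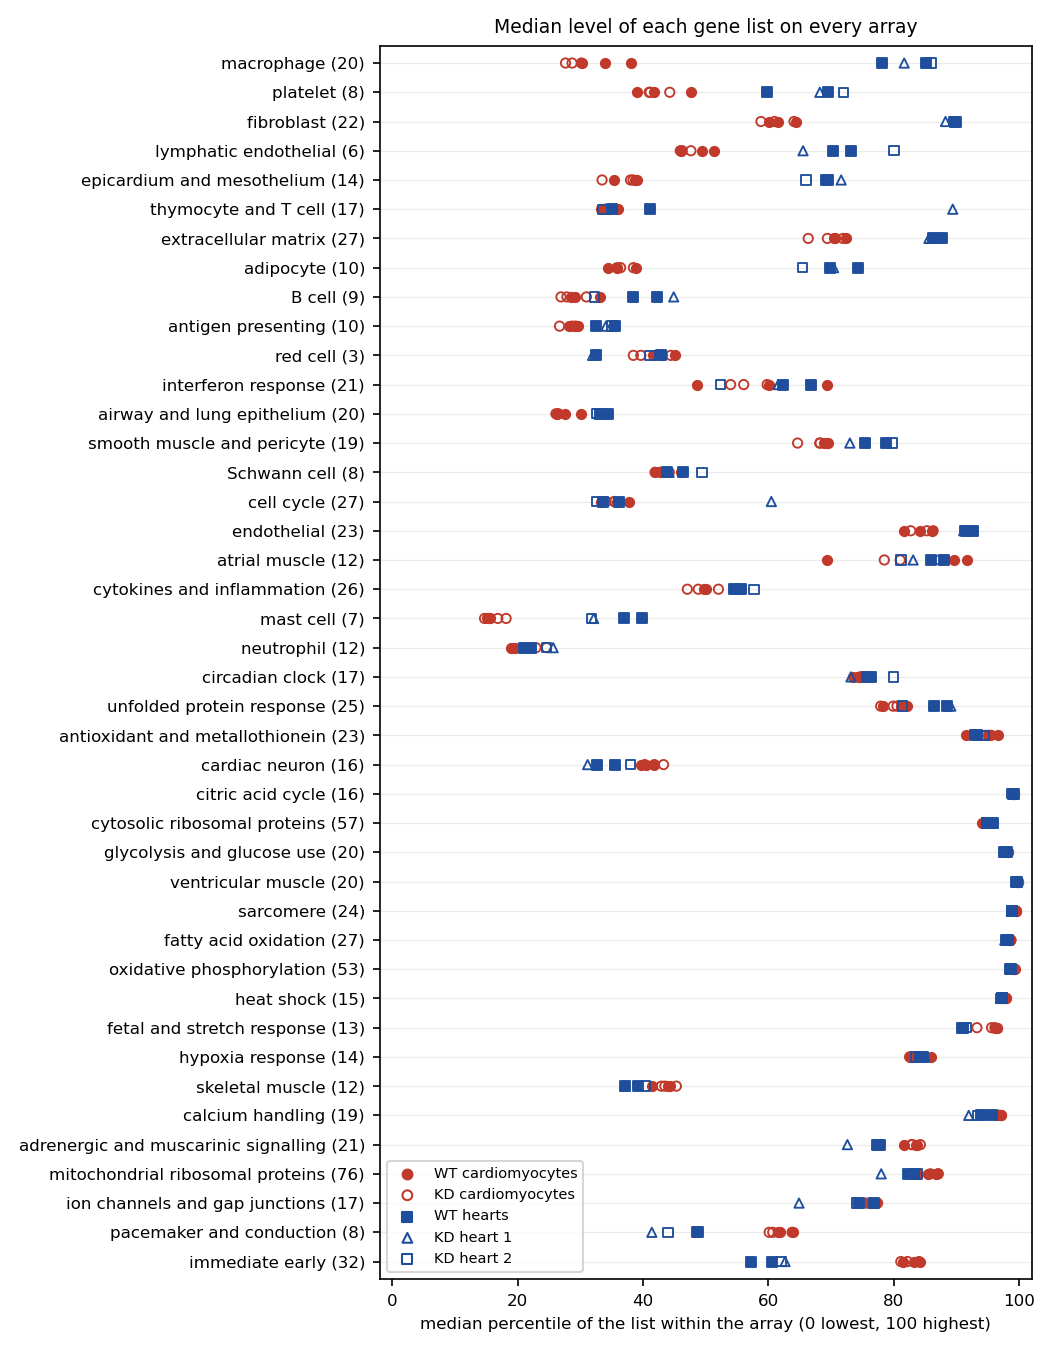
Median percentile of each gene list except the sensory receptors (rows, number of measured genes in brackets) on every array, ordered by the median difference between preparations. Macrophage genes were at 27.6 to 38.1 on the cardiomyocyte arrays and 78.1 to 86.1 on the hearts, immediate early genes at 81.1 to 84.2 and 57.2 to 62.7, and KD heart 1 (triangle) stands away from the other hearts in the thymocyte and cell cycle rows.

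Macrophage genes had the widest median difference of the 43 lists examined. Of 20 measured, 15 were called lower and none higher, 18 had non-overlapping arrays, and the median difference was -42.7 points. Csf1r, the receptor for the growth factor that macrophages live on, lay at 37.8, 40.3 and 49.2 in the cardiomyocytes and 85, 88.1, 86.4 and 89.4 in the hearts, a difference of -45.6 ± 2.2 points (adjusted p = 2.3e-07). Mrc1, the mannose receptor of resident macrophages, lay at 16.6, 18 and 32.8 against 81.2, 80.5, 81.6 and 81.9 (-61.1 ± 2.9; adjusted p = 2.1e-07). F13a1, a clotting factor subunit made by macrophages and platelets, lay at 18.2, 21.3 and 51.1 against 91.7, 91.0, 93.5 and 92.9 (-65.6 ± 5.2; adjusted p = 3.8e-06). In both genes the highest cardiomyocyte value came from WT array 3, and it still fell short of the lowest heart. C1qc and Ctss, a complement chain and a lysosomal protease, differed by -59.1 ± 2.6 and -62.0 ± 1.8 points.

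Other blood-borne and immune cells were not uniform. Of all genes, 14.2% were called lower and 15.3% higher, together 29.4%. Counted in either direction, the mast cell and neutrophil lists below were near or under that total. Among 10 antigen presentation markers 5 were called lower. H2-Aa, a class II chain, lay at 18.5, 30.1 and 39.8 against 95.7, 94.8, 97.9 and 94.5 (-65.4 ± 3.4; adjusted p = 3.2e-07), and Cd74, its invariant chain, differed by -50 ± 3.1 points (adjusted p = 7.8e-07). Among the 8 platelet markers 7 were called lower. Ppbp, a platelet chemokine, lay at 20.6, 34.7 and 68.6 against 85, 96.2, 96.9 and 98.2, a wide spread among the cardiomyocyte arrays, and Pf4 differed by -49.1 ± 4.0 points (adjusted p = 4.6e-06). Of 7 mast cell markers, 2 were called lower, 3 differed upward by less than 4 points, and the median difference was -2.84 points. The called ones were both proteases: Cpa3, at 1.71, 2.56 and 4.39 in the cardiomyocytes and 48.6, 64.7, 47.4 and 55.5 in the hearts, and Mcpt4, at 25.7, 28.4 and 29.2 and 49.5, 49.7, 45.4 and 53.6. Of 3 red cell markers 1 was called lower, and the list's median levels overlapped, at 38.5 to 45.1 in the cardiomyocytes and 32.0 to 42.8 in the hearts. The called one was Slc4a1, the anion exchanger, at 46.5, 48.7 and 51.8 against 69.8, 76.5, 83.8 and 83.7 (-29.3 ± 1.6 points). B cell markers were called lower for 5 of 9, among them Cd79a, part of the B cell receptor, at 6.91, 9.95 and 12.2 against 38.4, 50.3, 49.8 and 39.0 (-34.7 ± 2.7 points). Neutrophil markers gave 2 lower and 1 higher of 12, with a median difference of -2.28 points.

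Thymocyte and T cell genes were called lower for 8 of 17, but this count rested partly on 1 heart array. Rag1, which cuts antigen receptor genes in developing lymphocytes, lay at 15.9, 16.6 and 19.8 in the cardiomyocytes and at 24.7, 25.8, 98.8 and 27.0 in the hearts. Themis, needed for thymocyte selection, was at 3.63, 7.23 and 8.59 against 24.0, 26.4, 98.0 and 28.1. In each the value of KD heart 1 was near the top of the array, and the other 3 hearts lay above all cardiomyocyte arrays but far below KD heart 1. Rag1 differed by -27.0 ± 11 points (adjusted p = 0.047), and its call was lost when any 1 array other than KD heart 2 was left out, with a difference of -9.04 points without KD heart 1. Themis differed by -37.3 ± 11 points (adjusted p = 0.01) and was still called without KD heart 1, at -19.8 points. Cd3e, a chain of the T cell receptor complex, was higher on every heart array than on any cardiomyocyte array, at 55.9, 69.6, 91.5 and 61.9 against 44.4, 51.0 and 54.3. Without KD heart 1, 5 of the 17 were called lower and the median difference was -2.85 points in place of -17.2. Without WT heart 2 the count was also 5, and without KD heart 2, which leaves KD heart 1 as the only KD heart, it was 15 (14.5% of all genes were called lower in that fit). Cell cycle genes moved with the same array: their median was 60.5 on KD heart 1 and 32.6 to 36.1 on the other hearts, against 33.3 to 37.8 on the cardiomyocytes. Mki67, the proliferation marker, lay at 24.7, 28.0 and 31.4 against 47.2, 38.2, 84.6 and 53.6. Of 27 cell cycle genes, 7 were called lower and 3 higher, and without KD heart 1 the counts were 5 and 6. Without KD heart 2, 13 were called lower. The part of thymic or other lymphoid tissue in KD heart 1 was not tested.

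**Figure D3:**
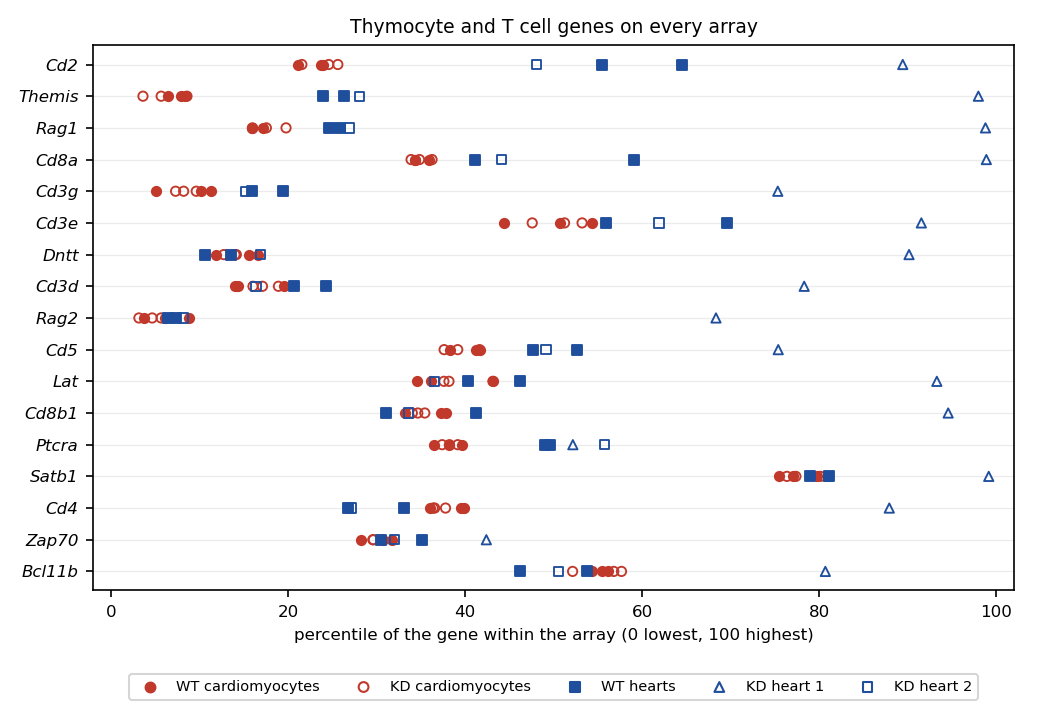
Percentile of each of the 17 thymocyte and T cell genes (rows) on every array. KD heart 1 (triangle) lies to the right of the other 3 hearts in all rows but Ptcra, with Rag1 at 98.8 there and 24.7 to 27.0 on the other hearts.

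Some vascular genes were far lower in the cells, and others were bright in both preparations. Of 23 endothelial markers, 6 were called lower and none higher, and the list's median difference was -4.07 points (-0.57 in quantile-normalized log2, though 0.07 above all genes when array medians were subtracted, where 7 were called higher and 6 lower). Cdh5, the cadherin of endothelial junctions, lay at 94.9, 96.1 and 96.8 in the cardiomyocytes and 96.7, 96.6, 96.6 and 96.9 in the hearts, ranges that met (-0.652 ± 0.31 points; adjusted p = 0.087). Kdr, a VEGF receptor of capillary endothelium, lay at 86.4, 88.4 and 89.9 against 95.9, 94.0, 94.8 and 93.7, and Pecam1 at 83.4, 86.4 and 87.9 against 96.5, 95.9, 96.0 and 95.6. Their differences of -6.28 ± 0.69 and -9.92 ± 0.83 points had adjusted p-values of 3e-05 and 5.1e-06 but stayed under the 10-point minimum, which Pecam1 passed in 5 of the 10 fits with 1 array left out. In quantile-normalized log2 both were called lower, Kdr by -0.91 ± 0.10 (adjusted p = 1e-05) and Pecam1 by -1.45 ± 0.09 (adjusted p = 1.2e-07). Plvap, which spans the openings of fenestrated and venous endothelium, was at 39.6, 41.0 and 42.5 against 85.8, 87.1, 83.8 and 85.6, a difference of -44.6 ± 1.3 points (adjusted p = 2.6e-08). Vwf, the clotting factor that is richest in large vessels and veins, was at 58.0, 61.4 and 64.4 against 93.2, 91.4, 91.9 and 91.3 (-30.7 ± 1.4; adjusted p = 1.8e-07). Tmem100, a membrane protein induced by BMP signalling in endothelium, was at 36.2, 49.3 and 81.4 against 96.8, 98.3, 94.2 and 95, with a single KD cardiomyocyte array high. The list's median lay at 81.6 to 86.3 on the cardiomyocyte arrays and at 91.2 to 92.7 on the hearts.

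**Figure D4:**
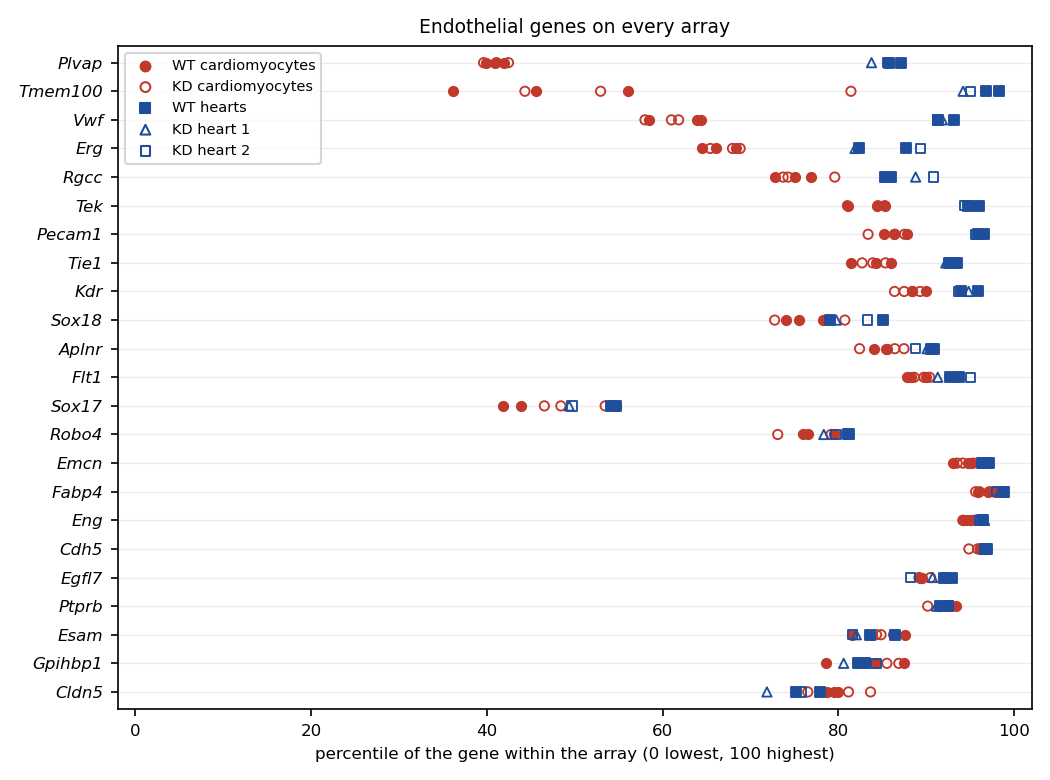
Percentile of each of the 23 endothelial genes (rows) on every array, ordered by the difference between preparations. Plvap, Tmem100 and Vwf lie at 36.2 to 81.4 on the cardiomyocyte arrays and at 83.8 to 98.3 on the hearts, whereas Cdh5 lies between 94.9 and 96.9 on all arrays.

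Lymphatic vessel genes were lower apart from 1. Lyve1, a hyaluronan receptor of lymphatics that resident macrophages also carry, lay at 42.2, 44.1 and 51.8 against 92.3, 96.0, 92.9 and 96.0 (-49.2 ± 1.9; adjusted p = 7.2e-08), and 5 of 6 markers were called lower. Prox1, the transcription factor that sets lymphatic identity and is also used in heart muscle, went the other way, at 87.3, 90.1 and 92.0 in the cardiomyocytes and 73.7, 79.5, 69.5 and 84.4 in the hearts (13 ± 2.6; adjusted p = 0.0013). Without KD heart 1 that difference was 9.33 points, below the minimum. Mural cells gave 8 lower and 2 higher of 19, where 14.2% of all genes were called lower and 15.3% higher. The members' differences ran from -19.6 to 14.9 points, and those named next were all lower. Myh11, the smooth muscle myosin, lay at 62.1, 63.5 and 68.7 against 81.0, 80.6, 78.4 and 80.8, and Vtn, a pericyte-rich glycoprotein in the heart, at 71.3, 74.1 and 77.2 against 89.6, 91.7, 89.9 and 93.4. Rgs5, a pericyte regulator of G proteins, was near the top in both, at 93.0 to 95.5 and 97.7 to 98.5, and lower by -1.16 ± 0.10 in quantile-normalized log2 (adjusted p = 7.3e-07).

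Markers of the covering layer were also lower in the cells, and those of attached tissues were lower in part. Of 14 epicardial and mesothelial markers 13 were called lower, and all 13 had non-overlapping arrays, with a median difference of -23.8 points for the list. Aldh1a2, which makes retinoic acid in the epicardium, lay at 19.5, 20.2 and 21.2 against 81.1, 77.7, 75.9 and 71.0 (-56.2 ± 1.5; adjusted p = 1.6e-08). Upk3b and Msln, surface proteins of mesothelium, differed by -36.4 ± 1.8 and -37.1 ± 2.2 points. Wt1, the epicardial transcription factor, did not follow them, at 67.8, 69.4 and 73.2 against 64.8, 68.1, 62.0 and 65.2. Of 10 adipocyte markers 6 were called lower and 4 were not called, 2 of which differed upward. The greatest differences included Adipoq, the adipocyte hormone, at 8.19, 9.61 and 13.4 against 76.9, 69.2, 69.8 and 62.5, a difference of -59.3 ± 2.1 points (adjusted p = 5.4e-08), and Car3, a carbonic anhydrase abundant in fat, at 24.1, 29.9 and 31.6 against 98.6, 97.1, 97.7 and 96.0. Ucp1, the uncoupling protein of brown fat, lay at 14.8, 16.1 and 17.6 against 62.2, 82.3, 72.7 and 48.6. Scgb1a1, the secretory product of airway club cells, was at 9.89, 44.1, 9.56 and 6.98 in the hearts and at 0.933 to 2.01 in the cardiomyocytes, so that WT heart 2 alone set most of its difference. Without WT heart 2 the difference was -7.87 points. Of 20 airway and lung markers 7 were called lower, and the list's median lay at 26.1 to 30.1 against 32.6 to 34.4. How much of these tissues was left on each heart was not tested.

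Genes of nerve cells and their sheaths were called in both directions, with neuronal counts near the shares over all genes. Those shares were 15.3% called higher, 14.2% called lower and 58.7% with non-overlapping arrays. Of 16 neuronal markers 3 were called higher and 2 lower, and 8 had non-overlapping arrays, 5 with the cardiomyocytes higher and 3 lower. The median level of the list was higher in the cells, at 39.7 to 43.3 against 31.2 to 38.0, with no overlap, whereas the median of the members' differences was -0.38 points. Ddc, the decarboxylase that forms dopamine, lay at 46.5, 49.3 and 53.4 against 31.7, 28.0, 27.3 and 26.6 (21.0 ± 1.8; adjusted p = 5.2e-06). Chat, the enzyme that makes acetylcholine, lay at 29.2, 31.7 and 33.4 against 13.5, 17.9, 13 and 18.2 (15.7 ± 1.4; adjusted p = 8.7e-06). Ret, the receptor for neurotrophic ligands of the GDNF family, was lower, at 43.9, 46.8 and 47.9 against 57.3, 62.8, 58.4 and 69.2 (-15.5 ± 2.3; adjusted p = 0.00021). The other called members, named here after their values were seen, were Chrna3, a nicotinic receptor subunit, at 10.4 points, and Stmn2, a regulator of neuronal microtubules, at -12.2 points. Th and Dbh, enzymes of noradrenaline synthesis, lay at 40.7 to 43.8 and 14.4 to 20.8 in the cardiomyocytes against 37.1 to 44.2 and 18.7 to 19.9 in the hearts, and their differences did not pass the test. Of 8 Schwann cell markers 2 were called higher and 1 lower, and 2 higher and 2 lower without KD heart 1. S100b, a calcium-binding protein, lay at 27.7, 30.0 and 33.2 against 15.1, 14.5, 14.1 and 12.7 (16.1 ± 1.1; adjusted p = 1.4e-06), and Foxd3, a neural crest transcription factor, at 35.5, 39.7 and 40.6 against 25.1, 25.3, 22.4 and 27.9 (14 ± 1.5; adjusted p = 2.5e-05). Gfra3, a co-receptor of Ret, was called lower at -10.1 ± 1.8 points, and fell short of the minimum when WT cardiomyocytes 1 or 3, KD cardiomyocytes 1, WT heart 1 or KD heart 2 was left out. Sox10, the transcription factor of Schwann cells, was at 50.5, 53.6 and 55.7 against 60.3, 60.8, 61.8 and 62.5, -7.97 ± 1.6 points, under the minimum. Of 12 skeletal muscle genes 2 were called higher and 2 lower, and 1 was called higher without KD heart 1, WT heart 1 or WT cardiomyocytes 2 or 3. Tnnt3, the fast troponin T, was lower, at 60.5, 62.0 and 67.5 against 82.0, 78.1, 81.0 and 83.0, and Neb, the thin-filament ruler nebulin, higher, at 56.0, 60.1 and 63.0 against 31.5, 32.6, 29.3 and 30.7.

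Atrial muscle genes were lower for some members and scattered for others. Bmp10, a growth factor of atrial muscle, was at 11.4, 14.7 and 22.9 in the cardiomyocytes and 89.3, 88.8, 85.5 and 63.0 in the hearts, a difference of -66.2 ± 3.9 points (adjusted p = 6.5e-07). Dkk3, a secreted protein enriched in atria, was at 34.8, 42.6 and 47.5 against 86.8, 83.2, 80.7 and 76.8, and Nr2f2, the transcription factor that sets atrial identity and also venous identity, at 35.9, 43.4 and 49.2 against 79.6, 82.1, 76.6 and 80.1. Both were called lower (-39.6 ± 2.7 and -36.8 ± 2.4 points). Myl7, the atrial counterpart of Myl2, ranged from 51.4 to 94.1 over the cardiomyocyte arrays, around a median of 80.9, and lay at 97.6, 96.9, 96.9 and 89.7 in the hearts, so the sets overlapped and the difference of -17.1 ± 7.8 points did not pass (adjusted p = 0.075). It passed when any 1 of the WT cardiomyocyte arrays was left out, at -20.3, -20.8 and -10.1 points without arrays 1, 2 and 3, and in quantile-normalized log2 it was called lower by -1.81 ± 0.52 (adjusted p = 0.0086). Nppa, the atrial natriuretic peptide, was bright throughout, at 95.1, 97.8 and 98.4 against 99.8, 99.7, 99.8 and 98.7, and lower by -1.77 ± 0.29 in quantile-normalized log2 (adjusted p = 0.00021). For Bmp10, Myl7 and Nppa the lowest heart was KD heart 2. Of 12 atrial genes, 3 were called lower and 1 higher by percentile, and 6 lower and 2 higher by quantile-normalized log2. The shares of all genes were 14.2% lower and 15.3% higher by percentile, and 19.5% and 21.0% by quantile-normalized log2. The members' differences reached 16.9 points upward. Arrays did not overlap for 7 members with the cardiomyocytes lower and for 2 with them higher.

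Genes linked with pacemaker tissue were mostly higher in the ventricular cells. Of 8 measured, 5 were called higher and 1 lower, the latter at -10.8 points. Among all genes the shares were 15.3% higher and 14.2% lower. Cacna1g, a T-type calcium channel, lay at 78.0, 80.2 and 82.2 against 48.9, 52.4, 43.7 and 43.3 (33.2 ± 1.3; adjusted p = 9.3e-08). Hcn4, the main channel of the pacemaker current, lay at 67.9, 71.7 and 76.2 against 48.5, 51.1, 49.2 and 55.2 (20.6 ± 1.9; adjusted p = 1.1e-05), and Tbx3, a repressor of working-muscle genes in the conduction system, at 66.3, 70.9 and 74.5 against 54.3, 56.2, 47.1 and 57.3 (17.0 ± 2.3; adjusted p = 0.00011). Shox2, which acts in the sinus node region of the developing heart, was near the bottom of all arrays, at 6.39 to 8.99 and 12.9 to 15.2. Among 17 channel and gap junction genes, 5 were called higher and 2 lower. Kcne1, the accessory subunit of the slow delayed rectifier, lay at 63.5, 70.4 and 73.1 against 40.3, 43.5, 37.1 and 30.6 (31.8 ± 2.0; adjusted p = 1e-06), whereas its pore subunit Kcnq1 differed by -1.37 ± 1.4 points (adjusted p = 0.4). Kcnd3, a channel of the transient outward current, differed by 23.5 ± 1.5 points (adjusted p = 1.2e-06). Gja5, the connexin of atria, conduction fibres and arterial endothelium, was lower, at 40.9, 45.8 and 47.5 against 77.0, 77.8, 70.9 and 74.0 (-29.7 ± 1.7; adjusted p = 4.8e-07), and Gja1, the connexin of working muscle, was at 98.8 to 99.1 and 98.5 to 99.1.

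Signalling genes of the autonomic inputs gave 3 of 21 called in each direction by percentile, 8 higher and 4 lower by quantile-normalized log2, and 15 higher and 3 lower with array medians subtracted. The shares over all genes were 15.3% called higher and 14.2% lower by percentile, close to those of this list. Its median level lay at 81.6 to 84.3 in the cells and 72.6 to 77.9 in the hearts, whereas the median of the members' differences was 3.71 points. Chrm2, the muscarinic receptor of heart muscle, was at 98.7 to 99.1 in the cardiomyocytes and 97.8 to 98.3 in the hearts, higher by 0.54 ± 0.08 in quantile-normalized log2 (adjusted p = 6.7e-05). The 3 called higher were Pde4b, a phosphodiesterase that breaks down cAMP (27.0 ± 0.96 points), Rgs2, which shortens signalling by Gq (23.3 ± 1.6 points), and Adra1b, an alpha-adrenergic receptor (21.7 ± 1.9 points). On every cardiomyocyte array the list's median was the value of Pde4b itself, which lay at 55.1 to 56.8 in the hearts. KD heart 1 was the lowest heart for this list's median, at 72.6 against 77.3 to 77.9 on the others. Of 19 calcium handling genes 1 was called in each direction by percentile, 8 higher and 3 lower by quantile-normalized log2, and 14 higher and 1 lower with array medians subtracted. Ryr2, the release channel of the sarcoplasmic reticulum, lay at 99.4, 99.4 and 99.6 against 98.6, 98.4, 97.9 and 98.5 and was higher by 1.08 ± 0.09 in quantile-normalized log2 (adjusted p = 8.7e-07). Mcu, the mitochondrial calcium uniporter, was called higher, at 81.1, 83.1 and 84.6 against 68.4, 70.6, 67.0 and 66.2 (15.1 ± 0.91; adjusted p = 7.2e-07). Stim1, the store sensor that opens surface channels, was called lower, at 52.2, 55.7 and 59.2 against 75.5, 75.3, 77.5 and 76.9 (-20.6 ± 1.5; adjusted p = 2.6e-06).

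Immediate early genes were higher in the isolated cells. Of 32 measured, 19 were called higher and none lower, 23 had non-overlapping arrays in that direction and 1 in the other, and the median difference was 14.2 points. The list's median lay at 81.1 to 84.2 on the cardiomyocyte arrays and at 57.2 to 62.7 on the hearts. The promoters of the 3 genes furthest apart, Atf3, Fos and Fosb, are shown so that the elements counted next can be seen in place. Each is the 250 bases before the start, on the gene's strand, from RefSeq with build GRCm38.p6, and capitals mark TGACG or its reverse complement, the core site of the cAMP response element.
Fos, chr12:85473640-85473889, plus strand: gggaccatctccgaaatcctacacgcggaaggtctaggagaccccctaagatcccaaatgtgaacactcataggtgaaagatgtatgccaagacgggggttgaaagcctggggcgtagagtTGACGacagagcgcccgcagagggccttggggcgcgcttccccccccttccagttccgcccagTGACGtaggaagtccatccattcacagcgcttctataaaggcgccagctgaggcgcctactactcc
Fosb, chr7:19310046-19310295, minus strand: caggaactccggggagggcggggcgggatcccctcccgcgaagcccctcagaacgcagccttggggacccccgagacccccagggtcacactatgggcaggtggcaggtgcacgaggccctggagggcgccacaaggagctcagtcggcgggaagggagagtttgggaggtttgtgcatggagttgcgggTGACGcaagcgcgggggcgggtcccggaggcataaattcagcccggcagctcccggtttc
Atf3, chr1:191183334-191183583, minus strand: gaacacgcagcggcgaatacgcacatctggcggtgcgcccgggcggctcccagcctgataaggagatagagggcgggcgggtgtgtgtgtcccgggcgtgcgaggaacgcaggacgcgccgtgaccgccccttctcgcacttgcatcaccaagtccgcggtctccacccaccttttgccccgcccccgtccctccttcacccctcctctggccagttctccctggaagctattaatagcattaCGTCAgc
The core site lay 66 to 62 and 129 to 125 bases before the start of Fos, 60 to 56 bases before that of Fosb, and, on the other strand, 7 to 3 bases before that of Atf3. Of the 25 immediate early genes with a promoter in the table, 14 held TGACG on either strand of these 250 bases (56.0%), against 21.6% of the 15010 measured genes with a promoter. The share was similar in members that were called and members that were not, 9 of 16 and 5 of 9. The whole element TGACGTCA, which contains the core site on both strands, occurred in 3 of 25 (12%) against 2.15%, the GC box GGGCGG in 19 (76.0%) against 46.2%, and the serum response element core, the CArG box, in 1 (4%) against 1.22%. Sites further than 250 bases before the start, and members of the list without a promoter sequence, were not searched. A low count therefore does not show that an element is absent from these genes.

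Fos itself, a subunit of the AP-1 transcription factor, lay at 90.7, 92.4 and 94.3 in the cardiomyocytes and at 33.6, 43.5, 42.7 and 47.6 in the hearts, a difference of 50.6 ± 1.9 points (adjusted p = 7.2e-08). Atf3, a stress-induced factor of the same leucine zipper class, lay at 96.5, 97.4 and 98.1 against 49.3, 42.0, 42.6 and 38.9 (54.2 ± 1.4; adjusted p = 1.6e-08). Fosb lay at 90.2, 92.6 and 96.4 against 47.3, 43.7, 43.6 and 47.8 (47.4 ± 1.5; adjusted p = 3e-08). In all 3 the hearts were below the middle of the array and the cells near its top. Egr1, a zinc finger factor induced by growth signals and stretch, lay at 95, 95.3 and 96.5 against 59.3, 53.3, 65.8 and 65.6 (34.5 ± 1.1; adjusted p = 2.9e-08), and Junb, another AP-1 subunit, at 77.8, 81.6 and 82.9 against 47.7, 45.8, 47.0 and 48.3 (34.1 ± 1.3; adjusted p = 7.4e-08). Jun was already bright in the hearts, at 85.3, 87.7, 85.7 and 83.4, and reached 97.7, 98.2 and 98.3 in the cells (12.6 ± 0.58; adjusted p = 1.7e-07). On the quantile-normalized log2 scale the differences were 4.30 ± 0.13 for Atf3, 3.21 ± 0.12 for Fos and 2.28 ± 0.09 for Jun. The direction was the same in both genotypes for each of these genes. The 1 member with all cardiomyocyte arrays below all hearts was Egr3, named here after its values were seen; it was not called.

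**Figure D5:**
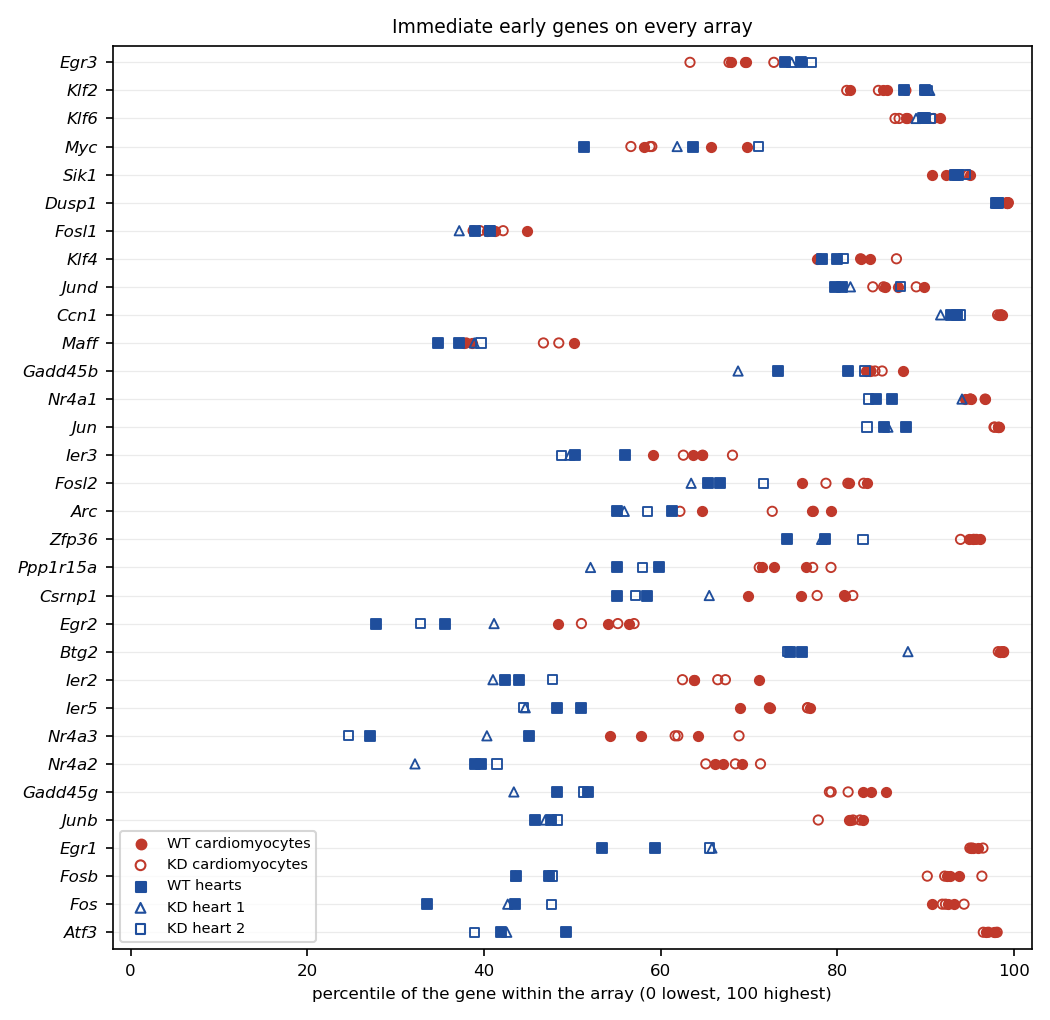
Percentile of each of the 32 immediate early genes (rows) on every array, ordered by the difference between preparations. Atf3, Fos and Fosb lie at 90.2 to 98.1 on the 6 cardiomyocyte arrays and at 33.6 to 49.3 on the 4 hearts, and the upper rows show the members whose arrays overlap or lie the other way.

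Heat shock and unfolded protein response genes were called by percentile less often than all genes (29.4%), and their log2 counts depended on the scaling. Of 15 heat shock genes, whose median was 97.0 to 98.0 on all arrays, 1 was called in each direction by percentile, 7 higher and 4 lower by quantile-normalized log2, and 11 higher and none lower with array medians subtracted. Hspa1a, the inducible heat shock protein of the Hsp70 family, lay at 83.7, 86.3 and 92.0 against 50.6, 52.1, 48.9 and 38.2 (39.5 ± 2.3; adjusted p = 6.5e-07). Its close paralogue Hspa1b can share probes, so the assignment between them is uncertain. It was the member called higher by percentile, and Hsph1, a partner of Hsp70, the member called lower, at 70.8, 72.9 and 76.8 against 89.5, 85.1, 87.9 and 81.5 (-12.8 ± 1.7; adjusted p = 0.00012). In the unfolded protein response, 2 of 25 were called higher (1 without KD heart 1) and 4 lower by percentile, 3 and 6 by quantile-normalized log2, and 15 and 3 with array medians subtracted. The list's median of -0.78 points turned to 0.46 above all genes when array medians were subtracted from log2 values. Ddit3, the stress factor CHOP, was called higher (15.5 ± 1.5; adjusted p = 1.2e-05) and Dnajc3, a chaperone partner that restrains the kinase PERK, lower (-16.9 ± 1.6; adjusted p = 9.6e-06). Hspa5, the main chaperone of the endoplasmic reticulum, was at 98.4 to 99.2 and 97.4 to 99.1. Among 26 cytokine and inflammation genes 4 were called higher and 7 lower. Il33, an alarmin of stromal and endothelial cells, was at 6.97, 10.7 and 12 against 55.1, 52.9, 45.7 and 56.4, Vcam1, an adhesion molecule for leukocytes, at 44.5, 56.3 and 60.4 against 88.9, 86.7, 90.7 and 87.5, and the chemokine Ccl4 was higher, at 48.1, 50 and 50.9 against 27.6, 29.0, 26.3 and 27.1.

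Interferon-stimulated genes varied within the cardiomyocyte set. Ifit1, an antiviral RNA-binding protein, ranged from 53.2 to 62.2 on 5 arrays and reached 95 on WT array 3, against 66.8, 62.4, 61.6 and 52.3 in the hearts, and its difference did not pass (adjusted p = 0.74). Irf7, the factor that amplifies the interferon response, was lower, at 44.1, 52.5 and 75.7 against 78.6, 76.1, 77.9 and 76.4 (-22.1 ± 4.7; adjusted p = 0.0021), and Rsad2, an antiviral enzyme, at 47.5, 55.6 and 70.4 against 79.4, 85.5, 88.9 and 91.6 (-29.5 ± 3.8; adjusted p = 8.1e-05). In all, 7 of 21 were called lower and 1 higher. In WT array 3 the macrophage list's median was also the highest of the 6, at 38.1 against 27.6 to 34.0 on the others.

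Energy metabolism filled the top of both preparations. The 53 oxidative phosphorylation genes had a median of 99.1 to 99.3 in the cardiomyocytes and 98.5 to 98.7 in the hearts, with 3 called higher and none lower by percentile, and 27 higher and 6 lower by quantile-normalized log2 (median 0.51). Ndufa2, a small subunit of complex I, was the furthest apart, at 96.0, 97.5 and 97.9 against 65.1, 64.7, 62.2 and 72.0 (31.2 ± 1.6; adjusted p = 2.6e-07). Uqcrc1, a core subunit of complex III, went the other way on the log2 scale, by -1.21 ± 0.08 (adjusted p = 1e-07). With array medians subtracted 45 were called higher and none lower. In fatty acid oxidation 2 of 27 were called higher and none lower by percentile (1 higher without WT heart 1), 11 and 3 by quantile-normalized log2, and 23 and none with array medians subtracted. The percentile calls included Mlycd, which removes the malonyl-CoA that blocks fatty acid entry, at 85.8, 87.4 and 89.5 against 70.6, 70.9, 66.6 and 71.6 (17.5 ± 0.99; adjusted p = 4.9e-07). Acadm, a dehydrogenase of the first step, was at 99.6 to 99.7 and 99.7 to 99.8, and Cs, citrate synthase, at 99.4 to 99.7 and 99.6 to 99.6. None of the 16 citric acid cycle genes was called by percentile. By quantile-normalized log2 4 were higher and 3 lower, with Idh2, the mitochondrial isocitrate dehydrogenase, higher by 1.07 ± 0.09 (adjusted p = 9.7e-07). With array medians subtracted, 12 were called higher and 1 lower. In glucose use, Pfkfb3, which makes the activator of phosphofructokinase, was lower, at 31.8, 34.8 and 40.6 against 70.1, 74.6, 72.4 and 72.4 (-37.5 ± 2.0; adjusted p = 3.4e-07), and 1 other of the 20 was called by percentile, upward. By quantile-normalized log2 2 were called higher and 5 lower, and with array medians subtracted 14 and 2. Mitochondrial ribosomal proteins gave 23 higher and 6 lower of 76, with a median difference of 4.70 points, and 19 higher without KD heart 1. The 57 cytosolic ribosomal protein genes, which have many near-identical copies, gave 6 higher and 3 lower, and their median, near 0 by percentile, turned to 0.64 above all genes when array medians were subtracted.

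Among genes that respond to load, oxygen or the time of day, hypoxia and clock genes were called by percentile about as often as all genes. Fetal and stretch genes were called less often. The shares over all genes were 29.4% by percentile, 40.6% by quantile-normalized log2 and 48.1% with array medians subtracted. Of 14 hypoxia genes 2 were called higher and 2 lower by percentile, 6 and 4 by quantile-normalized log2, and 8 and 2 with array medians subtracted. Of 13 fetal and stretch genes 1 was called higher and none lower by percentile, 6 and none by quantile-normalized log2, and 10 and 1 with array medians subtracted. Higd1a, a mitochondrial protein induced by low oxygen, lay at 73.7, 79.4 and 82.2 against 53.2, 52.6, 44.0 and 43.8 (30.4 ± 1.8; adjusted p = 5.9e-07). Vegfa, the vessel growth factor, was higher by 1.07 ± 0.09 in quantile-normalized log2 (adjusted p = 1e-06). Nmrk2, a kinase of NAD synthesis that rises in stressed heart muscle, lay at 55.3, 58.1 and 60.9 against 34.9, 33.7, 28.6 and 34.5 (25.2 ± 1.7; adjusted p = 1.4e-06) and was the fetal and stretch gene called by percentile. Nppb, the ventricular natriuretic peptide, was at 95.3, 98.4 and 98.7 against 96.2, 93.3, 93.5 and 84.3, higher by 1.44 ± 0.27 in quantile-normalized log2 (adjusted p = 0.00047). Of 17 clock genes, 3 were called higher and 2 lower by percentile, 4 and 5 by quantile-normalized log2, and 7 and none with array medians subtracted. Clock, an activator of the cycle, was at 86.6, 87.7 and 90.4 against 76.3, 75.9, 73.0 and 73.9 (13.1 ± 0.78; adjusted p = 6.8e-07), and Dbp, an output gene with a strong daily rhythm, at 82.9 to 90.9 and 85.3 to 91.2. The time of day of collection is not given in the labels.

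Over all genes, the greatest differences upward were of genes of varied kinds. Rny1, a small noncoding RNA bound by the Ro protein, lay at 87.0, 88.7 and 90.3 in the cardiomyocytes and 22.5, 11.0, 19.7 and 8.66 in the hearts (73.3 ± 2.7; adjusted p = 5.9e-08). Lgi1, a secreted protein known from synapses, lay at 89.7, 90.4 and 91.9 against 25.2, 30.8, 18.6 and 21.2 (66.7 ± 1.5; adjusted p = 1e-08). Dpep2, a membrane dipeptidase, lay at 66.6, 72.0 and 78.5 against 6.61, 5.79, 5.57 and 4.11. Selenok, a selenoprotein of the endoplasmic reticulum, was at the very bottom of the hearts, at 1.53, 0.344, 0.615 and 0.365, and at 63.7, 65.3 and 69.8 in the cells (65.7 ± 1.7; adjusted p = 1.6e-08). Washc3, a subunit of the endosomal WASH complex, lay at 91.8, 92.8 and 94.1 against 44.8, 48.0, 43.2 and 41.6. Downward, the greatest included genes of immune cells and stroma. Ms4a4a, a membrane protein of macrophages, lay at 5.86, 7.62 and 8.42 against 75.2, 92.9, 73.3 and 91.1 (-75.7 ± 3.9; adjusted p = 3.2e-07), with WT heart 1 and KD heart 1 below the other hearts. Anxa1, an annexin of leukocytes and stroma, lay at 26.0, 30.7 and 33.5 against 96.9, 96.3, 95.8 and 95.7, and Cyp2e1, a cytochrome P450 also found in fat, at 16.8, 19.0 and 21.1 against 88.5, 90.7, 81.4 and 88.2. Usp17ld, a deubiquitinase with near-identical relatives and so uncertain in its assignment, was at 20.1, 39.5 and 51.2 against 99.7 to 99.8.

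The counts of genes called between the preparations were similar in both genotypes. WT arrays alone gave 2859 genes higher and 2654 lower (28.7% called), and KD arrays alone 3036 higher and 2768 lower (30.2%). All 5650 genes called over both genotypes had the same direction in each. They were selected on the mean of the WT and KD differences, which by itself favours a shared direction. In limma's test of the interaction, the KD difference minus the WT difference, 0 of 19190 genes had an adjusted p under 0.05, the smallest being 0.12. Without adjustment, 926 genes had a p under 0.05, against 960 from chance alone. With 1 array left out, 0 to 317 genes passed. The 317 came without KD heart 2, when KD heart 1 with its thymocyte genes stood alone for the KD hearts, and the other non-zero counts were 4 without WT heart 1 and 5 without KD heart 1.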

How the data were processed

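RNA from pooled pairs of samples was extracted with a Bio-Rad kit and hybridised to Affymetrix whole-transcript arrays, per the labels' protocols. The authors deposited log2 values of 35556 probe sets, and the submitters' processing notes name RMA and Partek. Their versions and the genome build used are not stated in these sources. Each array's number, not a read depth, limits precision: the median 95% interval of a difference was ± 3.21 points.

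Of the probe sets, 21789 had exactly 1 symbol in the platform annotation, 1621 several and 12146 none. A gene with several probe sets was represented by the one brightest on average across all 10 arrays, and 748 genes of chromosomes X and Y were left out, which left 19190, 82 of them with no chromosome in the reference table. The log2 values were turned into percentile ranks within each array. Limma 3.58.1 in R 4.3.3 (lmFit, eBayes with trend) fitted 4 group means with 6 residual degrees of freedom, and tested the mean of both cardiomyocyte groups against the mean of both heart groups, each genotype alone and the interaction. On simulated data with 200 changed genes per run, 7.16% of genes shifted by 0.5 log2 were called in the comparison of cardiomyocytes and hearts, 64.5% at a shift of 1 and 84.7% at 2, with 1.3 false calls per run on average. All simulated arrays shared the cardiomyocyte means with normal noise, and only genes above the median level were shifted. They held no difference of labelling, scaling or spread between the sets, so calls that such differences could cause are not counted.

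The 43 gene lists, the promoter motifs and the comparison were chosen with earlier results of these data known. Named genes were the first 3 measured members of each list and up to 3 further called members with the greatest differences. Added to them were the 15 genes with the greatest differences in each direction. From these 15, predicted genes, receptor families and some small RNA families were left out by symbol, which kept the small RNA Rny1. The text names a subset. The alternatives were 22 settings of scaling, filters, variance model, minimum difference, replicate block, genotype and left-out arrays. List members without a measured probe set of their own were not analysed here.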

Additional observations from a re-analysis of the deposited data

Results flagged for a closer look

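An array was singled out where its gap to the nearest of the others, divided by the group's range, was above Dixon's 95% critical value (0.829 for 4 arrays and 0.625 for 6). Of 326 such tests on list medians and named genes 25 passed, where chance gives about 1 in 20, or 16. They are listed as percentiles, without explanation.

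KD heart 1 gave 6 of them. The thymocyte and T cell list was at 89.4 there against 33.6 to 41.2 on the other hearts, Rag1 at 98.8 against 24.7 to 27.0 and Themis at 98.0 against 24.0 to 28.1. The cell cycle list was at 60.5 against 32.6 to 36.1. It was the lowest heart for adrenergic and muscarinic signalling, at 72.6 against 77.3 to 77.9, and for Myh11, at 78.4 against 80.6 to 81.0.

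KD heart 2 was the lowest heart for 3 atrial genes: Bmp10 at 63.0 against 85.5 to 89.3, Myl7 at 89.7 against 96.9 to 97.6 and Nppa at 98.7 against 99.7 to 99.8. Its olfactory, vomeronasal and taste receptor list was at 7.17 against 7.33 to 7.36. In WT heart 2 Scgb1a1 was at 44.1 against 6.98 to 9.89. In WT heart 1 Ppbp was at 85 against 96.2 to 98.2, and the glycolysis list at 98.1 against 97.6 to 97.7.

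WT cardiomyocytes 3 was the highest of its 6 arrays for Mrc1 (32.8 against 16.6 to 18.8), F13a1 (51.1 against 18.2 to 29.5), Lyve1 (51.8 against 42.2 to 45.3) and Ifit1 (95 against 53.2 to 62.2). KD cardiomyocytes 1 was the lowest for the smooth muscle and pericyte list (64.7 against 68.2 to 69.5), the fetal and stretch list (93.3 against 95.6 to 96.5), Nppb (95.3 against 98.0 to 98.7) and Junb (77.8 against 81.4 to 82.9). Single passes were Foxd3 in WT cardiomyocytes 1 (35.5 against 39.1 to 40.6), Kcnd3 in WT cardiomyocytes 2 (81.2 against 76.1 to 77.4), Ms4a4a in KD cardiomyocytes 2 (5.86 against 7.46 to 8.42) and Scgb1a1 in KD cardiomyocytes 3 (2.01 against 0.93 to 1.19).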

How the results depend on the processing

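Of 120 named genes, 85 kept their direction and their side of the threshold under every alternative that tested them, other than another minimum difference. The filter on dim genes removed some of the 120. Those genes were not tested under that filter, so the 85 does not show that they would be unchanged by it. The counts of 2930 genes higher and 2720 lower became 4517 and 4226 with normal scores, 6949 and 6505 with no minimum difference, and 721 and 851 with a minimum of 20 points. Subtracting array medians from log2 values gave 5883 higher, and a filter on dim genes, which tests fewer genes, 1703 lower. The WT count of 5513 became 8987, 8529 and 3614 with array medians subtracted, normal scores and the dim filter, and the KD count of 5804 became 9376, 8775 and 3799. Non-overlapping genes, 11274 in all, were 6711 after the dim filter.

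Leaving out 1 array at a time gave 2873 to 2977 genes higher, 2691 to 2779 lower, 5224 to 5600 called in WT, 5611 to 5966 in KD, 11492 to 12200 without overlap and 0 to 317 for the interaction. Thymocyte members called lower, 8 in all, were 5 to 15 when 1 array was left out, 1 after the dim filter, 5 with the minimum of 20 points and 2 in WT arrays only. Atrial members lower, 3, became 6 with quantile-normalized log2, 5 with array medians subtracted, and 7 with normal scores or no minimum. Endothelial members lower, 6, became 12 with quantile-normalized log2, 11 with normal scores, 15 with no minimum and 3 at 20 points. At 20 points 11 immediate early genes were higher and 8 matrix genes lower. With array medians subtracted, Myl2 (0.97), Cdh5 (0.74), Acadm (0.84), Cs (0.98) and Dbp (0.53) were called higher in log2, against small negative percentile differences. The cause of these changes was not tested.

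Whether the replicate numbers pair the arrays was not settled. In their deviations from the group means, same-numbered WT and KD cardiomyocyte arrays correlated at 0.12, 0.11 and -0.04. Same-numbered hearts correlated at 0.19 and same-numbered arrays of different preparations at 0.04 to 0.12. All same-numbered pairs of arrays 1 and 2 were thus weakly positive, and all pairs of an array 1 with an array 2 were negative. The deviations of the 2 hearts of a genotype mirror each other, so their values are not independent. The cardiomyocyte arrays numbered 3 did not go together. With the replicate number as a block, 5 thymocyte genes were called lower, Rag1 was no longer called at -26.4 points, and the other counts given above stayed within 1.5 times.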
